A study of Mus musculus with 6 samples.

Results

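The 10 genes described here carry the ovulatory response of the follicle to luteinizing hormone (LH), and were taken by name from the 54532 genes of the expression table. They are the EGF-like ligands Areg, Ereg and Btc, the prostaglandin synthase Ptgs2, the transcription factors Pgr and Runx1, the cumulus matrix genes Tnfaip6, Has2 and Ptx3, and the protease Adamts1. RNA-seq was performed on granulosa cells (GCs) of 3-week-old ICR female mice, with 3 PBS samples and 3 CTX samples, each pooled from the GCs of 3 mice. All mice first received PMSG (pregnant mare's serum gonadotropin, 5 IU), which activates follicle growth, and 22 h later received a single intraperitoneal injection of phosphate buffered saline (PBS) or of cyclophosphamide (CTX), an alkylating drug. GCs were collected 6 h after that injection. The methods describe no ovulatory dose of human chorionic gonadotropin for these samples, so the genes were measured in PMSG-primed follicles.

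In the preovulatory follicle, LH acts on mural GCs, which release the EGF-like ligands, and these ligands act through the EGF receptor on GCs and on the cumulus cells around the oocyte. Cumulus cells then make prostaglandins and a hyaluronan matrix, in which TNFAIP6 and PTX3 help to crosslink the hyaluronan that HAS2 makes, and the cumulus expands. The progesterone receptor and RUNX1 are transcription factors induced by LH in GCs, and ADAMTS1 cleaves versican in the expanding matrix.

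After CTX treatment none of the 10 genes passed the test for differential expression, yet most of them were measured at lower levels. Btc, Ptgs2, Tnfaip6 and Adamts1 were lower in every CTX sample than in every PBS sample, as were 14.1% of all genes tested. Has2 was not lower, with a mean of 0.978 FPKM (fragments per kilobase of gene, scaled to library depth) in the PBS group and 1.23 FPKM in the CTX group. Ptx3 had the largest ratio of group means, 5.80 ± 4.80 against 0.969 ± 0.266 FPKM (SD, n = 3 each), but 1 PBS sample was as low as the CTX samples. CTX replicate 2 held the lowest CTX value for 7 of the 10 genes, a count not made over all genes. It decides the size of several of the differences below.

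The promoters of the 4 genes with separate groups and of Areg are shown because LH signals through cyclic AMP, and the cyclic AMP response element (CRE) is the classic letter pattern of such promoters. RefSeq (GRCm38.p6) gave promoter windows for 8 of the 10 genes. Ereg and Has2 had none in that set. The windows run from 250 bases before the transcription start to 50 after it, and the first 280 bases are printed 5′ to 3′ with the searched patterns in capitals.

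Areg, chr5:91139349-91139628, plus strand: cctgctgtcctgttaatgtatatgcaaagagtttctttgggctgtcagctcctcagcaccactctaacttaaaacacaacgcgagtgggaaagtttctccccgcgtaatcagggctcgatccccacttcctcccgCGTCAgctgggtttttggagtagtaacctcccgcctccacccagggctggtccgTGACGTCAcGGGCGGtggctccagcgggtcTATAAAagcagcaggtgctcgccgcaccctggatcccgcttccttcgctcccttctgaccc

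Btc, chr5:91402965-91403244, minus strand: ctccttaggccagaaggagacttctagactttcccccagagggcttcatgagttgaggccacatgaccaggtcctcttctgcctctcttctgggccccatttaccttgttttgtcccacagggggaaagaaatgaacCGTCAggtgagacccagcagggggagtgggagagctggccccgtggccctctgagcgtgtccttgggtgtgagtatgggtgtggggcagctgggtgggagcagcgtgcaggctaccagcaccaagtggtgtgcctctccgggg

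Ptgs2, chr1:150099781-150100060, plus strand: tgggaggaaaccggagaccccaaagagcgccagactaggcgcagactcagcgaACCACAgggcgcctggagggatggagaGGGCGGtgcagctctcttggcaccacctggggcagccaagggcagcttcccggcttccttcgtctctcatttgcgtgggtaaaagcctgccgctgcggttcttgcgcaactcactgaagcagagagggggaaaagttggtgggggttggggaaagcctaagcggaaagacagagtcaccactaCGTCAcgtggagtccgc

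Tnfaip6, chr2:52037863-52038142, plus strand: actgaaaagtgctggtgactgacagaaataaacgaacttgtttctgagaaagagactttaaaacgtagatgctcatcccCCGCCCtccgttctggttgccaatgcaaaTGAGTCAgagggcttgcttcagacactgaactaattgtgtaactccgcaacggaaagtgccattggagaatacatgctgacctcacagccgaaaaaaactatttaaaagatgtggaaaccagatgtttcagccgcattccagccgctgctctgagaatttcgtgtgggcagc

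Adamts1, chr16:85803084-85803363, minus strand: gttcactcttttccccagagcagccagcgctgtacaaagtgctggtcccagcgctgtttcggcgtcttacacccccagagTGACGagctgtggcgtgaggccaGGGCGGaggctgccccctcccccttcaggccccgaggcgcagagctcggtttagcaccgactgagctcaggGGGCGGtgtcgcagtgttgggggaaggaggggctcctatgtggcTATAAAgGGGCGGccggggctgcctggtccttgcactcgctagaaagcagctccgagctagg

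The full CRE, TGACGTCA, was found in the Areg window alone among the 9 member windows (Runx1 has 2 windows), at bases -61 to -54 from the start, where 1.79% of all 32851 promoter windows hold one. The shorter CRE core TGACG, which the full CRE contains, occurred in 4 of the 9 windows, those of Areg, Btc, Ptgs2 and Adamts1, against 20.8% of all windows. In Ptgs2 it lies after the start, at bases 14 to 18 on the other strand. Tnfaip6 held an AP-1 pattern, TGANTCA, at bases -142 to -136, and no CRE core, and 7.81% of all windows hold that pattern. The RUNX pattern TGTGGT stood in the Ptgs2 window at bases -197 to -192 and in 1 Runx1 window, against 16.8% of all windows. The GC box GGGCGG stood in the windows of 5 genes (Ptgs2, Tnfaip6, Areg, Pgr and Adamts1; 35.7% of all windows). The TATA box TATAAA stood in those of Areg, Pgr and Adamts1 (13.6% of all windows). It lies at bases -31 to -26 in Areg and -32 to -27 in Adamts1, but in Pgr at -212 to -207 on the other strand. Both strands were searched for each pattern, and the Ptx3 window held none of the 6 patterns. These are matches of letters, and binding was not measured.

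The libraries held 16005869 to 18455011 reads on genes. CTX replicate 2 stood apart from the other 5 on the first principal component (74.7 against -26.6 to 13.2, 46.8% of the variance). Of the 9 granulosa markers, 5 had every CTX sample below every PBS sample, against 14.1% of all genes tested. None was called (limma), and 3 were lower at an unadjusted p of 0.05, against 9.10% of all genes tested. Their median log2 fold change was -0.56, or -0.23 without CTX replicate 2. Inha was between 8556 and 10400 FPKM in all 6 samples, but CTX replicate 2 was at 40.9% of the PBS mean for Foxl2, 46.7% for Fshr, 36.4% for Nr5a1, 25.6% for Inhba and 10.9% for Cyp19a1. Of the same 9 markers, Fst was at 91.0% in that sample, and Amhr2 and Amh were higher, at 186.4% and 361.5%. Chosen after their values were seen, the LH receptor Lhcgr was at 1.48 FPKM in CTX replicate 2, against 108.5 to 113.1 FPKM in the PBS samples, and Amh, which GCs of smaller follicles make, at 178.7 FPKM against 48.4 to 51.1 FPKM. Of the 9 immune markers 6 were tested, and 4 of these were above the PBS samples in every CTX sample, against 15.0% of all genes tested. The sum of all 9 was 21.7 to 23.9 FPKM in the PBS group and 25.8 to 65.9 FPKM in the CTX group, highest in CTX replicate 2. Lyz2 made up most of it, at 13.1 to 14.3 FPKM in the PBS samples and 45.8 FPKM in CTX replicate 2. The means of Ptprc, Fcer1g and Itgam were lower in the CTX group, and those of the other listed immune markers higher. The immune sum thus does not describe its 9 listed genes alike. The part of these differences in the results below was not tested, and in bulk RNA fewer cells of a type cannot be told apart from less RNA per cell.

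In the PBS samples the 10 genes spanned a wide range of levels per gene length. Adamts1 was highest at 71.0 ± 6.29 FPKM, and was separated from the next gene, Tnfaip6, at 7.59 ± 3.21 FPKM. Ptx3, Runx1 at 5.08 ± 0.362 FPKM, Ptgs2 at 3.36 ± 1.30 FPKM, Btc at 1.98 ± 0.640 FPKM, Ereg at 1.41 ± 0.403 FPKM, Has2 and Areg followed, and neighbours in that order had overlapping PBS samples. Pgr was lowest at 0.0985 ± 0.0498 FPKM and was separated from Areg at 0.697 ± 0.269 FPKM (all SD, n = 3). Areg and Pgr fell under the filter of a mean of 0.5 FPKM over the 6 samples, so 8 of the 10 genes were tested.

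**Figure D1:**
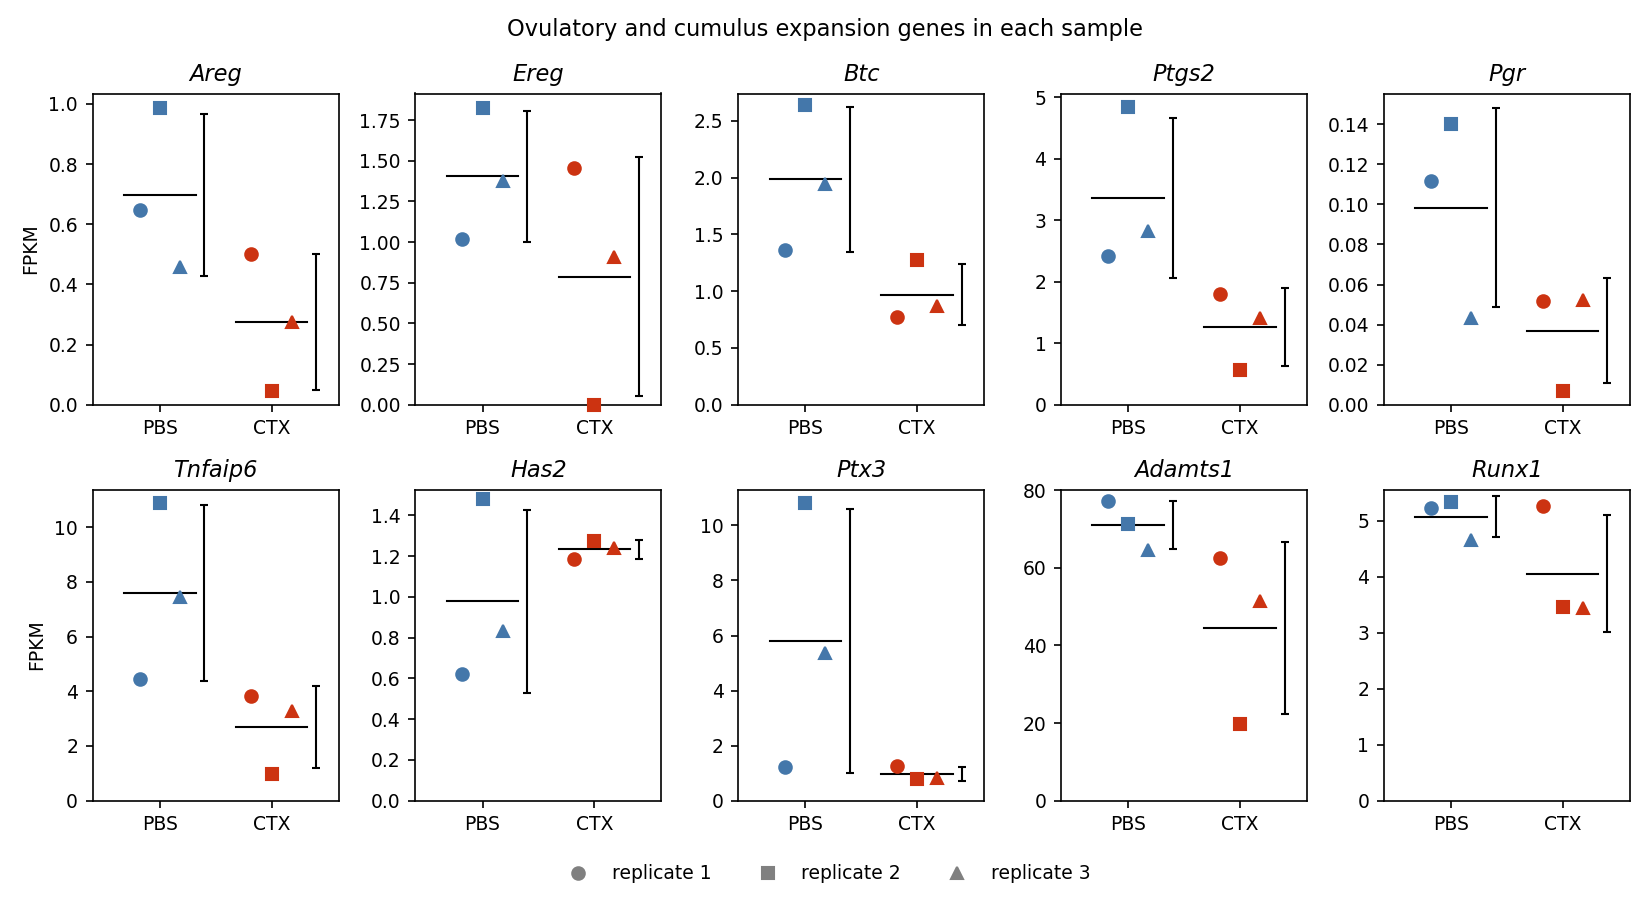
FPKM (linear axis from 0) of each of the 10 genes in the 3 PBS samples (blue) and 3 CTX samples (red), with the replicate number as the symbol, the group mean as a line and the SD as a bar. Btc, Ptgs2, Tnfaip6 and Adamts1 have every CTX sample below every PBS sample, as do 14.1% of all genes tested. Has2 has a CTX mean of 1.23 FPKM inside the PBS range.

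Btc (ENSMUSG00000082361, mm10 chr5:91357261-91402994, minus strand, 5 exons in its longest transcript) encodes betacellulin, an EGF-like growth factor that binds the EGF receptor. It had the narrowest interval of the 4 genes with separate groups. Its levels were 1.37, 2.64 and 1.94 FPKM in PBS replicates 1, 2 and 3 and 0.769, 1.27 and 0.864 FPKM in CTX replicates 1, 2 and 3. All CTX samples lay below the PBS samples, and here CTX replicate 2 was the highest of the CTX group, not the lowest. The fitted difference, CTX minus PBS, was a log2 fold change of -0.94 (SE 0.29, 95% interval -1.65 to -0.24, limma adjusted p = 0.175), on the log2(FPKM + 0.1) scale used throughout, which understates changes of low genes. It was -1.14 (limma adjusted p = 0.0999) without CTX replicate 2.

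Ereg (ENSMUSG00000029377, chr5:91074622-91093646, plus strand, 5 exons) encodes epiregulin, another ligand of the EGF receptor. It was measured at 1.02, 1.82 and 1.38 FPKM in the PBS samples, and after CTX treatment at 1.46, 0 and 0.906 FPKM in the CTX samples. No read was found in CTX replicate 2, which allows up to 3 reads, while the other CTX samples held 109 and 67 reads and the PBS samples 75 to 138. CTX replicate 1 lay within the PBS range, so the groups overlapped. The log2 fold change was -1.45 (SE 1.01, 95% interval -3.88 to 0.99, limma adjusted p = 0.447), and without CTX replicate 2 it was -0.23. Gm19610 overlaps Ereg on the opposite strand and reached 2.14 FPKM, and since the strand setting of the counting is not given, reads of both cannot be told apart.

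Areg (ENSMUSG00000029378, chr5:91139599-91148432, plus strand, 6 exons) encodes amphiregulin, an EGF-like ligand with the strong early response to LH in GCs, and its promoter carries the full CRE shown above. It rested on few reads, 14, 22 and 9 in the PBS samples, against 11, 1 and 6 in the CTX samples. These correspond to 0.647, 0.988 and 0.457 FPKM in the PBS group and 0.4996, 0.0464 and 0.276 FPKM in the CTX group. CTX replicate 1 lay above PBS replicate 3, so the groups overlapped. In the fit without a filter the log2 fold change was -1.26 (95% interval -2.65 to 0.14, limma adjusted p = 0.433), and without CTX replicate 2 it was -0.69.

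The 3 ligands summed to 3.03, 5.45 and 3.77 FPKM in the PBS samples, and after CTX treatment to 2.73, 1.32 and 2.05 FPKM in the CTX samples. Every CTX sum was below every PBS sum, and the means were 4.09 ± 1.24 and 2.03 ± 0.704 FPKM. Of the 3 ligands Btc alone had separate groups, so the sum does not describe them alike. Btc made up 45.0% to 51.4% of the sum in the PBS samples. In CTX replicate 2 it made up 96.5%, and in CTX replicates 1 and 3 it made up 28.2% and 42.3%.

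Ptgs2 (ENSMUSG00000032487, chr1:150100031-150108227, plus strand, 10 exons) encodes the inducible cyclooxygenase that starts prostaglandin synthesis. Its levels were 2.41, 4.85 and 2.82 FPKM in the PBS samples, against 1.81, 0.566 and 1.41 FPKM in the CTX samples, from 46 to 407 reads. The groups did not overlap, and the CTX samples were at 53.8%, 16.9% and 42.1% of the PBS mean. Its log2 fold change was -1.41 (SE 0.45, 95% interval -2.49 to -0.33, limma adjusted p = 0.179). Without CTX replicate 2 it was -0.96 (limma adjusted p = 0.160), and the groups remained separate.

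Pgr (ENSMUSG00000031870, chr9:8899833-8968611, plus strand, 8 exons) encodes the progesterone receptor, a transcription factor needed for follicle rupture. Its 1 to 22 reads a sample gave 0.112, 0.140 and 0.0433 FPKM in the PBS samples, against 0.0517, 0.00660 and 0.0523 FPKM in the CTX samples. PBS replicate 3 lay below 2 of the CTX samples. With the log2 fold change at -0.52 in the fit without a filter (95% interval -1.21 to 0.17, limma adjusted p = 0.501), a difference was not detectable at this depth.

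Runx1 (ENSMUSG00000022952, chr16:92601466-92826149, minus strand, 8 exons) encodes a transcription factor that binds the RUNX pattern, and was measured from 738 to 1175 reads. Its levels were 5.24, 5.33 and 4.66 FPKM in the PBS samples, against 5.26, 3.46 and 3.44 FPKM in the CTX samples. CTX replicate 1 was within the PBS range, and CTX replicates 2 and 3 were both near 68% of the PBS mean (68.1% and 67.8%). A log2 fold change of -0.34 (SE 0.18, 95% interval -0.78 to 0.09, limma adjusted p = 0.332) was fitted.

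Among the matrix genes, Tnfaip6 (ENSMUSG00000053475, chr2:52038009-52056686, plus strand, 6 exons) encodes the hyaluronan-binding protein TSG-6, which transfers heavy chains of serum proteins to hyaluronan. It was measured at 4.46, 10.9 and 7.44 FPKM in the PBS samples, and after CTX treatment at 3.84, 0.989 and 3.26 FPKM in the CTX samples. The CTX samples all lay below the PBS samples, by a narrow gap between CTX replicate 1 and PBS replicate 1. The log2 fold change was -1.57 (SE 0.55, 95% interval -2.90 to -0.24, limma adjusted p = 0.205). Leaving out CTX replicate 2 gave -0.99 (limma adjusted p = 0.193).

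Ptx3 (ENSMUSG00000027832, chr3:66219910-66225805, plus strand, 3 exons) encodes pentraxin 3, a structural partner of TNFAIP6 in the matrix. Its levels were 1.23, 10.8 and 5.36 FPKM in the PBS samples, against 1.28, 0.799 and 0.833 FPKM in the CTX samples. The PBS samples spread widely, and PBS replicate 1 lay below CTX replicate 1. Ptx3 had a log2 fold change of -2.04 (SE 0.73, 95% interval -3.80 to -0.27, limma adjusted p = 0.211), or -1.92 without CTX replicate 2. The summed oocyte markers were also lowest in PBS replicate 1 of the PBS group (33.1, 70.3 and 66.0 FPKM in PBS replicates 1 to 3), and were 45.7, 81.6 and 78.4 FPKM in the CTX samples. Ptx3 was at 0.799 and 0.833 FPKM in CTX replicates 2 and 3, where the summed oocyte markers were above the PBS samples. The marker lists hold no separate markers of cumulus cells, and a part of oocytes or cumulus cells in the Ptx3 levels was not tested.

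Has2 (ENSMUSG00000022367, chr15:56665627-56694539, minus strand, 4 exons) encodes the enzyme that makes hyaluronan, and was the gene of the 10 with a higher mean after CTX treatment. Its levels were 0.622, 1.48 and 0.831 FPKM in the PBS samples, against 1.19, 1.28 and 1.24 FPKM in the CTX samples. The CTX samples agreed closely with each other and lay between PBS replicates 2 and 3. The log2 fold change was 0.39 (SE 0.31, 95% interval -0.36 to 1.13, limma adjusted p = 0.502), and 0.36 without CTX replicate 2. Has2os, on the opposite strand, reached 0.704 FPKM, and its reads cannot be told apart from those of Has2 where the genes overlap.

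Adamts1 (ENSMUSG00000022893, chr16:85793827-85803113, minus strand, 9 exons) encodes a secreted metalloprotease and had by far the most reads of the 10 genes, 1861 to 7292 a sample. Its levels were 77.2, 71.2 and 64.6 FPKM in the PBS samples, against 62.5, 19.8 and 51.4 FPKM in the CTX samples. The groups did not overlap, but CTX replicate 1 was at 88.1% of the PBS mean and CTX replicate 2 at 27.9%. The log2 fold change was -0.82 (SE 0.41, 95% interval -1.82 to 0.17, limma adjusted p = 0.318). Without CTX replicate 2 it was -0.32 (limma adjusted p = 0.201), with the 2 remaining CTX samples still below the PBS samples.

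**Figure D2:**
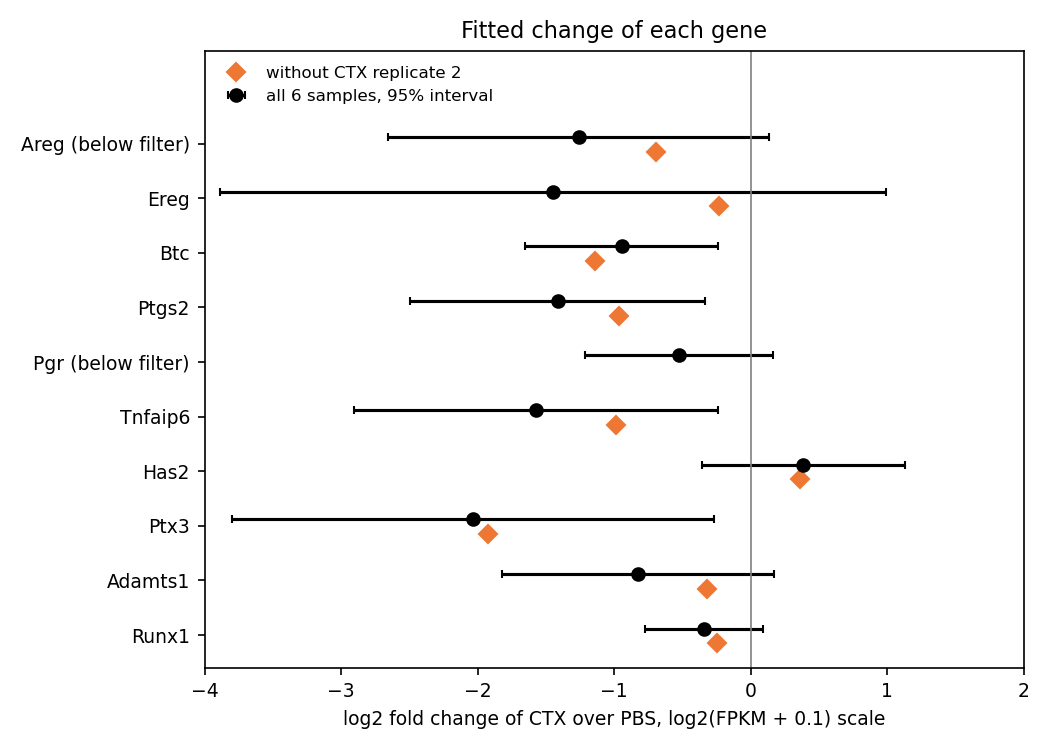
Fitted log2 fold change of CTX over PBS on the log2(FPKM + 0.1) scale for each gene, with its 95% interval over all 6 samples (black) and the value without CTX replicate 2 (orange). The intervals of Btc, Ptgs2, Tnfaip6 and Ptx3 lie below 0, Ereg moves from -1.45 to -0.23 when that sample is left out, and Pgr has no value without it because it is under the filter.

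Counted together, 0 of the 8 tested genes passed an adjusted p of 0.05 with more than a 2-fold change in either direction (limma), where 23 genes were downregulated (0.159% of 14463 tested) and 116 upregulated (0.802%). At an unadjusted p of 0.05 the fit held 4 of the 8 as lower (Btc, Ptgs2, Tnfaip6 and Ptx3) against 9.10% of all genes, and 0 as higher against 10.5%. Without the fold threshold 0 of the 8 passed (0.360% of all genes were lower and 1.40% higher). limma's voom on the rebuilt reads called 0 of the 8 as well (0.124% of all genes downregulated), with 3 of the 8 lower at an unadjusted p of 0.05 (Btc, Ptgs2 and Tnfaip6) against 9.56% of all genes. With limma's arrayWeights, which weights CTX replicate 3 far above the other CTX samples, 4 of the 8 were downregulated (Btc, Ptgs2, Tnfaip6 and Ptx3) against 2.01% of all genes, and 0 upregulated against 2.53%.

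Every CTX sample was below every PBS sample in 4 of the 8 tested genes, against 14.1% of all genes tested. Areg and Pgr overlapped. Without CTX replicate 2 it was the same 4 genes, against 19.3%. Leaving out CTX replicate 1, which was the highest CTX sample for 7 of the 10 genes, gave 7 of the 8 tested genes (all but Has2), and Areg as well, against 25.1%. The fitted change was below 0 in 7 of the 8, with a median of -1.18 against -0.01 over all genes, of which 51.37% were below 0. Without CTX replicate 2 the median was -0.69 over 9 genes, against -0.007 over all genes. Areg then passed the filter, with means of 0.697 FPKM in the PBS group and 0.388 FPKM in CTX replicates 1 and 3. That median is the value of Areg itself, and it covers a different set of genes than the -1.18.

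The order of the samples within each group was counted for the 10 genes only, and not over all genes tested. PBS replicate 2 was the highest PBS sample for 9 of the 10 genes, Adamts1 being the exception, and PBS replicate 1 was the lowest for 6 (Ereg, Btc, Ptgs2, Tnfaip6, Has2 and Ptx3). The PBS coefficient of variation ranged from 7.12% for Runx1 to 82.7% for Ptx3. On the mean centred log2 profile of the tested genes, PBS replicates 1, 2 and 3 stood at 0.02, 1.02 and 0.50, and CTX replicates 1, 2 and 3 at -0.02, -1.20 and -0.32. PBS replicate 1 and CTX replicate 1 were thus almost level. Of 8054 other genes with a mean of at least 5 FPKM, those most like this profile over the 6 samples were Rce1 (Pearson r = 0.985), Phf1, Fam58b, Prpsap1 and Dgat1 (r = 0.980). Their group means differed far less, from 16.3 to 14.98 FPKM for Rce1 and from 12.5 to 10.2 FPKM for Dgat1.

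**Figure D3:**
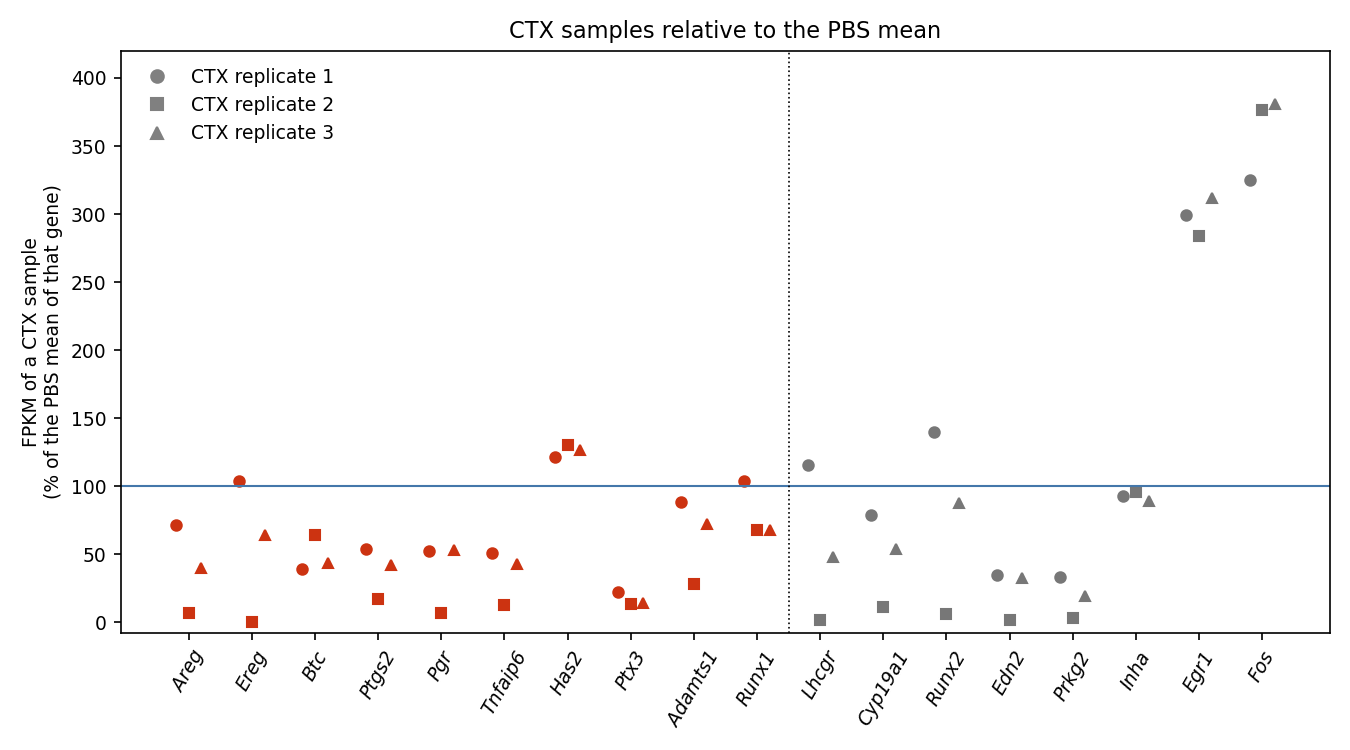
FPKM of each CTX sample as a percent of the PBS mean of the same gene, for the 10 genes (red) and 8 genes of the pathway and marker lists (grey), with the replicate number as the symbol and the PBS mean as the line at 100%. CTX replicate 2 is the lowest symbol for 7 of the 10 genes and is at 1.33% for Lhcgr, and of the granulosa markers drawn it is at 95.6% for Inha and 10.9% for Cyp19a1.

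Around these genes, 76 other genes of the ovulatory pathway were listed and 59 were tested. Of the 59, 0 were downregulated (0.159% of all genes tested) and 5 were upregulated (0.802%, limma). At an unadjusted p of 0.05 in that fit 14 were lower (9.10% of all genes tested) and 10 higher (10.5%). With voom 1 was downregulated (0.124% of all genes tested), the prostaglandin transporter Slco2a1. Every CTX sample was below every PBS sample in 17 of the 59 (14.1% of all genes tested) and above in 11 (15.0%). Their median log2 fold change was -0.15, and -0.03 without CTX replicate 2, when 28 of the 59 were above 0.

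The upregulated genes were all in the list of transcription factors that LH induces, 5 of its 12 tested members. Egr1, an immediate-early zinc finger factor, was 310, 317 and 277 FPKM in the PBS samples, against 902, 855 and 939 FPKM in the CTX samples (log2 fold change 1.58, limma adjusted p = 0.00119). Fos rose by a log2 fold change of 1.85, Junb by 1.78, Jun by 1.28 and Nr4a1, an orphan nuclear receptor, by 2.32. FOS, JUN and JUNB form the AP-1 dimers that bind the pattern found in the Tnfaip6 window, and Tnfaip6 itself was measured at lower levels in the same samples. Whether AP-1 acts on Tnfaip6 was not tested. In that list Runx2, chosen after its values were seen, was 10.4, 8.86 and 8.15 FPKM in the PBS samples, against 12.8, 0.574 and 8.0 FPKM in the CTX samples.

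EGF receptor genes, other ligands and sheddases had 0 of 7 tested genes called and a median log2 fold change of 0.08, or -0.04 without CTX replicate 2. The sheddases that release EGF-like ligands from the membrane, Adam10 and Adam17, were at 56.7 ± 2.44 and 23.3 ± 1.01 FPKM in the PBS group and at 60.1 ± 2.61 and 21.2 ± 1.01 FPKM in the CTX group. Erbb2, an EGF receptor family member, was at 10.1 ± 0.877 and 12.6 ± 4.84 FPKM (SD, n = 3).

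In the prostaglandin pathway, 0 of 7 tested genes were called, and the median was 0.00, or -0.06 without CTX replicate 2. Ptges, the prostaglandin E synthase downstream of Ptgs2, was at 68.7 ± 2.01 FPKM in the PBS group and 70.0 ± 15.9 FPKM in the CTX group. Ptges3, another such synthase, was at 61.0 ± 4.19 and 64.1 ± 2.26 FPKM, and Hpgd, which inactivates prostaglandins, at 43.8 ± 5.78 and 64.4 ± 34.1 FPKM. Slco2a1, chosen after its values were seen, was 1.55, 1.30 and 1.47 FPKM in the PBS samples, against 0.713, 0.225 and 0.379 FPKM in the CTX samples (log2 fold change -1.61, limma adjusted p = 0.101). All CTX samples lay below the PBS samples there, as for Ptgs2.

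Of the hyaluronan matrix genes 0 of 6 tested were called, with a median of -0.10, or -0.04 without CTX replicate 2. Vcan, which encodes versican, the substrate of ADAMTS1, was 55.9, 49.2 and 45.0 FPKM in the PBS samples, against 43.5, 12.6 and 26.8 FPKM in the CTX samples, and these did not overlap (log2 fold change -1.02, limma adjusted p = 0.252, and -0.54 without CTX replicate 2). Its order over the CTX samples was that of Adamts1. Hyal2, a hyaluronidase, was at 20.6 ± 0.449 and 20.1 ± 0.929 FPKM, and Hmmr, a hyaluronan receptor, at 9.09 ± 0.103 and 7.10 ± 2.16 FPKM.

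Among 11 tested proteases and inhibitors, Mmp2, which degrades collagens, was the one below an adjusted p of 0.05, and it was higher. It was 2.51, 2.28 and 2.27 FPKM in the PBS samples, against 4.53, 4.90 and 3.73 FPKM in the CTX samples (log2 fold change 0.86, limma adjusted p = 0.0316, under the 2-fold threshold). Timp1, which inhibits metalloproteases, was at 120.0 ± 8.76 FPKM in the PBS group and 58.5 ± 33.4 FPKM in the CTX group, without overlap of the samples (log2 fold change -1.23, limma adjusted p = 0.220, and -0.69 without CTX replicate 2). Ctsl, a lysosomal protease, was at 148.6 ± 8.60 and 186.9 ± 44.4 FPKM, and Plau at 45.0 ± 2.81 and 46.2 ± 8.40 FPKM. The median of the list was -0.25, and -0.06 without CTX replicate 2.

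The list of progesterone receptor targets had a median of -0.85 with 0 of 7 called, and a median of -0.13 without CTX replicate 2. Pgr itself had 1 to 22 reads a sample. Whether each listed gene, Pgrmc1 among them, is a target of the receptor in these cells was not tested. Edn2, which encodes a smooth muscle constrictor, was 8.18, 7.87 and 8.57 FPKM in the PBS samples, against 2.83, 0.154 and 2.67 FPKM in the CTX samples. Prkg2, a cyclic GMP-dependent kinase, was 2.75, 2.36 and 2.21 FPKM in the PBS samples, against 0.812, 0.0840 and 0.478 FPKM in the CTX samples. Both were chosen after their values were seen, and in both the CTX samples lay well below the PBS samples. Their log2 fold changes were -2.70 and -2.46 (limma adjusted p = 0.197 and 0.108). Without CTX replicate 2 they were -1.54 and -1.80, and both were then downregulated (limma adjusted p = 0.000872 and 0.0179). Cited2, Pgrmc1 and Pparg, the most abundant genes of that list, were at 241 ± 10.4, 90.2 ± 2.59 and 48.6 ± 4.06 FPKM in the PBS group and at 222 ± 74.5, 101.6 ± 2.88 and 52.3 ± 1.44 FPKM in the CTX group.

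The list of the LH receptor and luteinising genes also holds Inhba, Cyp19a1, Ccnd2 and Fshr, so its median does not describe luteinising genes alone. The paper describes Cyp19a1 as suppressed after ovulation induction. That median was -1.01 with 0 of 9 called, and -0.27 without CTX replicate 2, with 4 of the 9 then above 0. Without that sample Star, Sfrp4 and Lhcgr, chosen after their values were seen, were at log2 fold changes of 0.68, 0.24 and -0.43. Inhba, the activin subunit, was 902, 822 and 754 FPKM in the PBS samples, against 665, 211 and 487 FPKM in the CTX samples. Cyp11a1, which makes pregnenolone, was 564, 544 and 553 FPKM in the PBS samples, against 727, 14.4 and 486 FPKM in the CTX samples, and its log2 fold change was 0.10 without CTX replicate 2. CTX replicate 2 was thus lowest for both, as for most of the 10 ovulatory genes. Rgs2, which dampens G protein signaling, was at 79.5 ± 3.29 and 111.1 ± 28.6 FPKM.

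**Figure D4:**
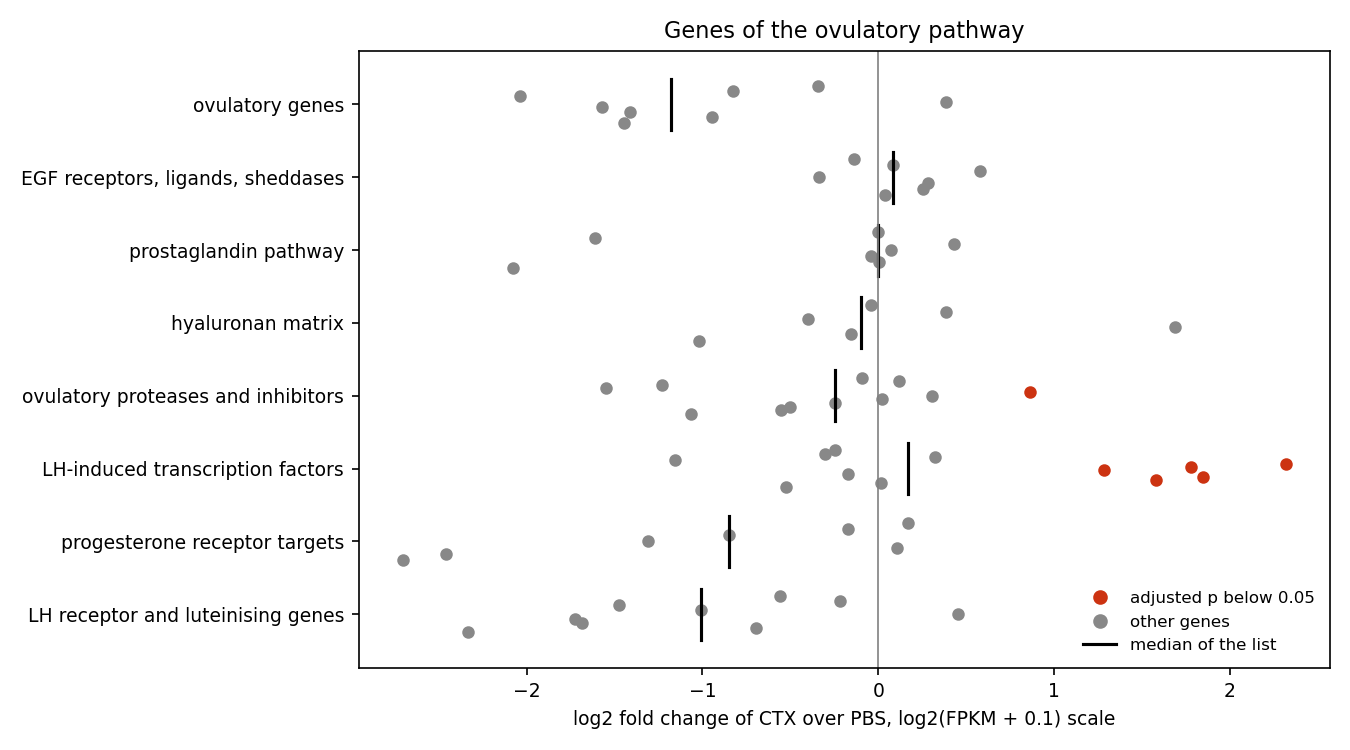
Log2 fold change of CTX over PBS on the log2(FPKM + 0.1) scale for each tested gene of the 10 ovulatory genes (8 tested) and of 7 pathway lists over all 6 samples, with the median of each list as a bar and genes below an adjusted p of 0.05 in red. The 8 tested genes have a median of -1.18 and none in red, and the 5 upregulated genes lie among the LH-induced transcription factors.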

How the data were processed

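RNA-seq of GCs was measured in 6 samples, 3 PBS and 3 CTX, grouped by their labels. The authors deposited FPKM per gene and sample, with the tools listed in the submitters' processing notes as CASAVA 1.8, fastp, HISAT2 2.0.5, featureCounts 1.5.0-p3 and DESeq2 1.20.0, and the build as mm10. Beside FPKM, the authors gave a mean signal per group and columns of their own comparison (log2 fold change, p-value and adjusted p-value), whose values are not reported. No per-sample column was left unused (0). Whole reads were rebuilt from FPKM and gene length (100% within 0.001 read of a whole number), giving 16005869 to 17790353 reads per PBS sample and 17727770 to 18455011 per CTX sample, and their group means matched the authors' signal within 1.45e-09 of its value.

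Genes with a mean of at least 0.5 FPKM over the 6 samples were compared as log2(FPKM + 0.1) with limma 3.58.1 (eBayes with trend, Benjamini-Hochberg adjustment over 14463 genes) in R 4.3.3, and called at an adjusted p below 0.05 with more than a 2-fold change. The fit was tested on simulated data. Intervals of a fold change are 95%, a sample with no read allows up to 3 reads, and such floors cover counting error only. Tables were made in Python 3.11.15 with pandas 2.3.3, and figures with matplotlib 3.10.9. The samples hold the GCs of different mice, and the p-values measure the spread between these pools.

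The genes and lists were chosen with earlier results of these data known. Named are the 10 genes, pathway genes called or below an adjusted p of 0.05, the 3 most abundant genes of each other list, and the 5 genes most like the mean profile. Any gene outside this rule is named as chosen with its values seen, apart from genes of the marker lists and genes that overlap the 10. Coordinates of the 10 genes were the same in GENCODE M21. Ptx3 and Runx1 overlap genes on the opposite strand, Veph1 and Gm26626, which reached 0.125 and 0.212 FPKM, and the strand setting of the counting is not given in the sources used here. Of the marker lists, the theca sum was 36.0 to 38.7 FPKM in PBS and 10.3 to 34.7 FPKM in CTX samples. Cyp17a1 made up most of it in the PBS samples, with a mean of 32.7 FPKM, and was at 1.25 FPKM in CTX replicate 2. In that sample Ptch1, Agtr2 and Insl3 (9 reads) were at 180.9%, 359% and 240.2% of their PBS means, and Gli1 at 91.8%. The theca sum thus does not describe its 5 listed genes alike. In the same order of groups, stroma was 17.6 to 18.6 and 7.89 to 36.3 FPKM, and endothelium 4.45 to 5.45 and 1.79 to 4.10 FPKM. Surface epithelium was 4.95 to 5.92 and 2.04 to 6.80 FPKM. No marker was at 0 in all samples, and 1 marker outside the pathway lists was called, Cd14 (log2 fold change 1.29, limma adjusted p = 0.0347). Alternatives were other pseudocounts, filters and scalings, no trend, no fold threshold, arrayWeights, voom on rebuilt reads, a replicate block and each sample left out.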

Additional observations from a re-analysis of the deposited data

How the results depend on the processing

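The calls on the tested ovulatory genes changed in 1 setting. With limma's arrayWeights, which gave CTX replicate 2 a weight of 0.163 and CTX replicate 3 a weight of 16.6, 4 were downregulated, Btc (log2 fold change -1.13, adjusted p = 0.00510), Ptgs2 (-1.24, adjusted p = 0.00678), Tnfaip6 (-1.20, adjusted p = 0.0151) and Ptx3 (-2.36, adjusted p = 0.0162), against 2.01% of all genes, so that fit rests mainly on 1 CTX sample. With each sample left out, 0 of the 8 to 9 tested were called in either direction. The median log2 fold change over the genes tested in each such fit was -1.43 to -0.69. Genes with every remaining CTX sample below every remaining PBS sample numbered 4 to 8 of 10. They were 8 without CTX replicate 1, against 25.1% of all genes tested, and 4 without CTX replicate 2, against 19.3%. That share was not taken with the other samples left out. No direction was reversed. Of the other pathway genes, 6 were downregulated with arrayWeights, and 1 each with a pseudocount of 1, with quantile normalization and with voom, and 0 to 2 with a sample left out (2 without CTX replicate 1, Prkg2 and Slco2a1, and 2 without CTX replicate 2, Edn2 and Prkg2). Upregulated pathway genes numbered 4 to 5 with a sample left out. The cause of these differences was not tested. Over all genes, 23 downregulated genes became 1 to 2 without any one PBS sample, 70, 58 and 14 without CTX replicates 1, 2 and 3, and 291 with arrayWeights, and the 116 upregulated genes became 57 to 143 with a sample left out and 366 with arrayWeights.

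The labels give both groups replicates 1 to 3. The deviations of same-numbered samples correlated at 0.0556, 0.0242 and 0.00581, and those of other pairs at -0.0756 to 0.0593. Same-numbered samples thus shared no deviation above that of other pairs. With 3 samples a group this cannot exclude that same-numbered samples were handled together. With the replicate block 0 of the 8 tested genes and 0 pathway genes were downregulated, 4 pathway genes were upregulated, the members' median stayed at -1.18, and 2 genes were downregulated and 48 upregulated in all. Areg and Pgr, with 1 to 22 reads a sample, and the 3 samples a group limit what could be detected, and the CTX samples differed from each other more than the PBS samples did.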

Other observations

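Some pathway genes had patterns not described above, and were chosen after their values were seen. Has1, another hyaluronan synthase, was counted at 5, 8 and 2 reads with PBS, and 18, 11 and 17 reads with CTX, without overlap, while Has3 had 20, 39 and 26 reads and 18, 28 and 24 reads. Itih2, which encodes a heavy chain that TNFAIP6 transfers to hyaluronan, was 1.52, 1.74 and 2.09 FPKM in the PBS samples, against 1.93, 18.6 and 5.68 FPKM in the CTX samples. Its highest value was thus in CTX replicate 2, where Tnfaip6 was lowest. Of the other EGF-like ligands, Hbegf was 2.199, 2.09 and 2.34 FPKM in the PBS samples, against 2.95, 4.13 and 3.06 FPKM in the CTX samples, without overlap and in the opposite direction to Btc (log2 fold change 0.58, limma adjusted p = 0.135). Epgn was counted at 5, 3 and 9 reads with PBS and 1, 2 and 3 reads in the CTX samples.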
